A study of Mus musculus with 9 samples.

Results

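The genes described here are 10 genes that sense, move, store and export cholesterol in macrophages, chosen by symbol. No cut on a measured value was used, but the list was drawn up with earlier results of these data known. All 10 were found among the 14905 genes of the deposited table. They comprise the liver X receptors (Nr1h3 and Nr1h2), the efflux proteins Abca1, Abcg1 and Apoe, the ubiquitin ligase gene Mylip, the lysosomal sterol exporters Npc1 and Npc2, and the esterifying and de-esterifying enzymes Soat1 and Nceh1. They were measured by RNA sequencing of F4/80 and CD11b double-positive macrophages sorted from mouse visceral fat. Mice of the Nucb2-/- genotype, which disrupts Nucb2, the gene of the calcium-binding protein nucleobindin-2, gave 5 libraries (hereafter KO) and wild-type mice gave 4 (WT), all on the C57BL/6 background. The sample labels give no age, sex or treatment of the mice and do not name a diet; the submitters' name for the table of all 9 libraries carries the letters HFD, which it does not spell out, and the series title speaks of obesity. They also do not say that each library came from its own mouse, so the errors and p-values below describe the spread between libraries, which may be partly technical.

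Liver X receptors (LXRs) are nuclear receptors that bind oxysterols, oxidised forms of cholesterol, and act on DNA together with a retinoid X receptor. When a macrophage takes up more cholesterol than it needs, ligand-bound LXRs raise transcription of genes for efflux, among them Abca1, Abcg1 and Apoe, and of Mylip, whose product is a ubiquitin ligase. Cholesterol reaches this system from lysosomes, where NPC2 hands it to the membrane protein NPC1. Excess is stored as cholesteryl ester made by SOAT1, and NCEH1 is a hydrolase that frees cholesterol again from those esters.

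The DNA element that LXRs bind is a pair of similar half-sites in the same orientation with 4 bases between them. A core of that element was searched for, on both strands, in windows from 250 bases before to 50 bases after each annotated start (RefSeq, GRCm38.p6). The core was GGTNA, then any 5 bases, then GGTNA again, where N is any base, and no other motif was searched. Of the 10 genes, 8 had a window in the table of promoters, with 11 windows in all; Abcg1 and Npc1 had none. The core was found in 1 window, that of Abca1. It was in 0.502% of the 14331 windows of genes in the deposited table and in 0.718% of all 32851 windows. Among 12 other known LXR target genes with a window, Srebf1 and Fasn held it. The Abca1 sequence is shown because it was the 1 window of this gene set that held the core; it spans the 250 bases before the start, chr4:53159896-53160145 on the minus strand, and the capitals mark the core, which lies from position -67 to -53 and reads on the opposite strand.
Abca1 promoter: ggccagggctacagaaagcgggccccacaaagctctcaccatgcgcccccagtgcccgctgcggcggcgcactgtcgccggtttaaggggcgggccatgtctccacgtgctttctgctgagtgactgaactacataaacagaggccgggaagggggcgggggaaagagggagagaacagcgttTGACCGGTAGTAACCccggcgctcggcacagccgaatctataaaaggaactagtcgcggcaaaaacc
A match of letters is a description of the sequence and not a measured binding site.

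The loss of Nucb2 was visible in the libraries. Nucb2 had 1493, 1466, 1623, 1165 and 1752 normalized counts in KO replicates 1 to 5, against 4457, 4253, 5233 and 3311 in WT replicates 1 to 4, so KO libraries kept on average 34.8% of the WT level. A normalized count is the number of reads of a gene divided by 1 factor per library. In the fit over the whole table (limma on log2 of the normalized count plus 1, Benjamini-Hochberg adjusted p under 0.05) 46 genes passed, which is 0.309% of those tested. An unadjusted p under 0.05 was reached by 9.14% of genes, and KO ranges lay wholly outside WT ranges in 3.15%. The read totals, inferred from the step between values, were 74937712 to 85200100 in 6 deeper libraries (KO replicates 1 to 4 and WT replicates 1 and 2) and 51148956 to 55004978 in 3 shallower ones (KO replicate 5 and WT replicates 3 and 4). Markers of the labelled cell type were abundant: Adgre1, Itgam, Cd68, Csf1r, Lyz2 and Fcgr1 together summed to 1067854 to 1219860 in KO and 1108499 to 1249480 in WT. None of these 6 passed the test, though 3 had an unadjusted p under 0.05 (Fcgr1, Adgre1 and Itgam).

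Per length of exon, the 10 genes covered a wide range of levels, with Apoe far above the others. Apoe, which encodes the lipid-binding protein that macrophages secrete to accept exported cholesterol, averaged 88594 ± 10741 normalized counts per kb in KO libraries and 116630 ± 17575 per kb in WT libraries (SD, n = 5 and 4 here and below). It ranked 28th of 14369 genes that had an exon length, and took 0.287% ± 0.037 of all normalized counts in KO and 0.358% ± 0.054 in WT. Npc2 came next with 12753 ± 800 per kb in KO and 14116 ± 1422 in WT, and then Abcg1, with 6045 ± 284 per kb in KO and 6672 ± 858 in WT. The libraries of each of these genes lay wholly above those of the gene below it in the order, down to Nceh1 at 3286 ± 370 per kb in KO and 3472 ± 397 in WT. Soat1, Nr1h3 and Abca1 followed, and in that stretch the ranges of neighbours overlapped. Mylip, Nr1h2 and Npc1 were the lowest and overlapped each other, with mean levels of 476, 475 and 496 per kb in KO and 522, 520 and 455 per kb in WT. The lengths joined the exons of all annotated transcripts, 11317 bases for Npc1 and 3233 for Mylip, so this order depends on that choice. Before division by length, Npc1 averaged 5608 normalized counts in KO and Mylip 1538.

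**Figure D1:**
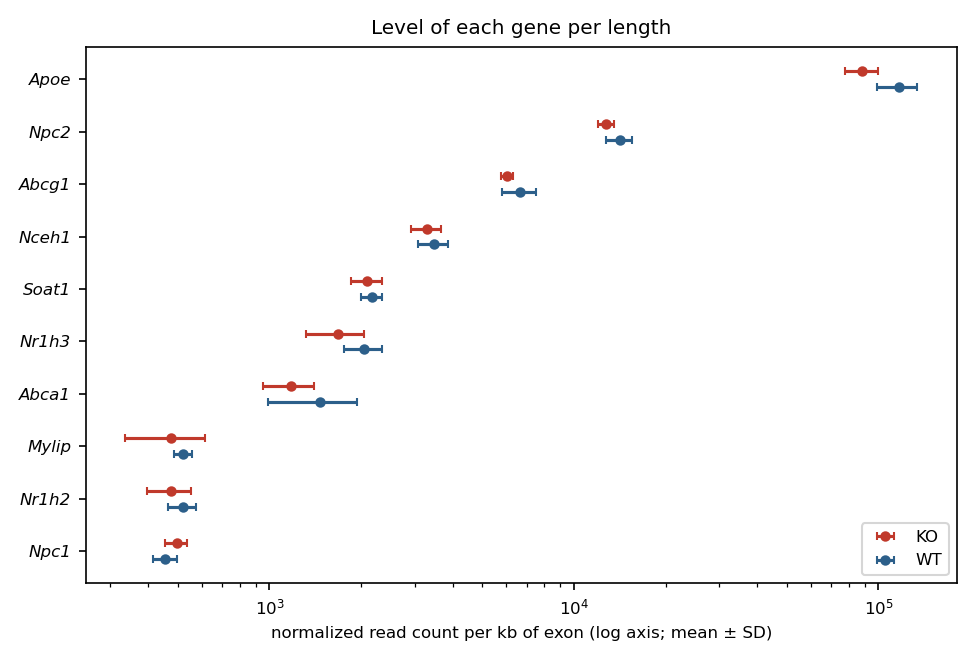
Normalized read count per kb of exon (log axis) for each of the 10 genes, ordered by level, with KO above WT; points are means and bars SD over 5 KO and 4 WT libraries. Apoe stands highest, at 88594 per kb in KO and 116630 per kb in WT, and Mylip, Nr1h2 and Npc1 share the lowest level.

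None of the 10 genes passed the test between KO and WT, and in each of them the ranges of the groups overlapped. This stands beside 0.309% of all genes that passed and 3.15% whose ranges did not overlap. On the log2 scale 9 of the 10 genes had a difference below 0, that is lower in KO, and only Npc1 lay above it; across all genes, 47.6% lay below 0, and among the 4818 genes with a mean at least that of the lowest of the 10, 57.0% did. The median difference was -0.14 over the 10 genes, -0.03 over those 4818 genes and 0.02 over all genes. In the 6 deeper libraries alone the count below 0 was 5 of 10 and the median -0.02. Without KO replicate 5 the count was 8 of 10. The normalized totals of the libraries were lower in KO, at 65109031 to 67031402, than in WT, at 68500063 to 70902637. As a mean share of that total, Soat1 was higher in KO (0.0310% against 0.0305% in WT), as was Npc1, while the other genes were lower. Scaling to that total was not among the alternatives.

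**Figure D2:**
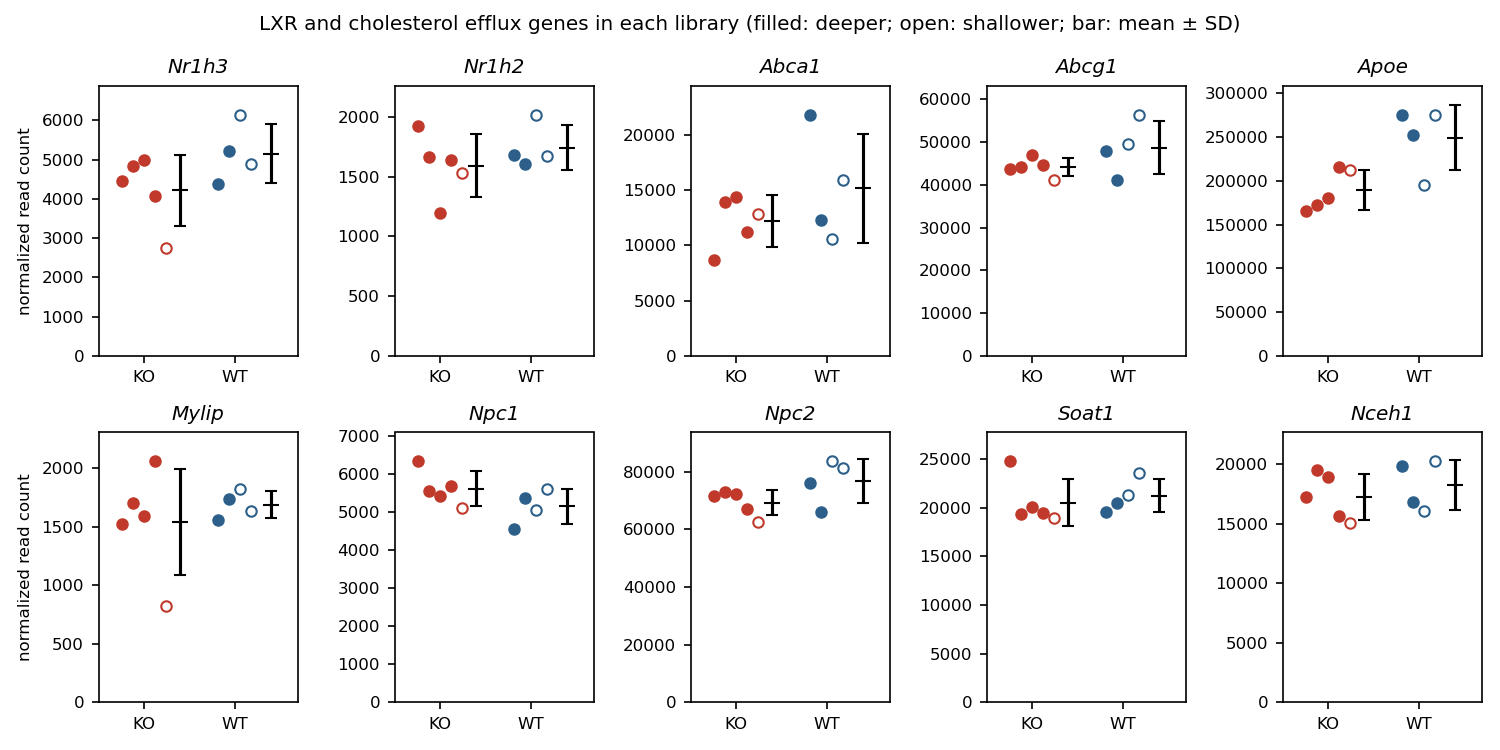
Normalized read count (axes start at 0) in each library for the 10 genes, KO left of WT; filled points are deeper and open points shallower libraries, and black bars are mean ± SD. The groups overlap in each panel; Apoe comes nearest to separating, with all 5 KO points between 165844 and 215177 and the WT points between 195275 and 275187.

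Of the receptor genes, Nr1h3, which encodes LXRα, had the more abundant RNA. Nr1h3 had 4456, 4830, 5000, 4073 and 2741 normalized counts in KO replicates 1 to 5, against 4374, 5217, 6138 and 4893 in WT replicates 1 to 4. KO replicates 4 and 5 lay below the WT range and WT replicates 2 and 3 above the KO range, and the rest intermixed. The log2 difference was -0.31 (95% interval -0.66 to 0.04; limma adjusted p = 0.61), and it was -0.16 without KO replicate 5 and -0.06 in the deeper libraries. Nr1h2, which encodes LXRβ, the form made in most tissues, had 1924, 1665, 1199, 1642 and 1529 normalized counts in KO, against 1686, 1604, 2018 and 1671 in WT. Here the KO libraries spanned nearly the whole range and the WT libraries lay within or just above it (difference -0.14, interval -0.51 to 0.23, adjusted p = 0.84). Per kb, Nr1h3 stood at 3.64 ± 1.20 times Nr1h2 in KO and 3.94 ± 0.37 times in WT, with KO libraries between 2.39 and 5.56 and WT libraries between 3.46 and 4.34. Nr1h3 lies on chromosome 2 from 91184061 to 91202834 and Nr1h2 on chromosome 7 from 44549616 to 44553951 (mm10, GENCODE M21). A non-coding transcript, Gm13783, shares 34 bases of Nr1h3 exon on the same strand, 1.35% of its exons.

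Neither of the efflux pump genes, Abca1 and Abcg1, passed the test. Abca1, on chromosome 4 from 53030787 to 53159895, encodes the transporter that loads cholesterol onto lipid-poor apolipoproteins and is a classical LXR target; its promoter sequence is printed above. It had 8684, 13966, 14397, 11207 and 12803 normalized counts in KO replicates 1 to 5, against 21815, 12338, 10588 and 15946 in WT replicates 1 to 4. WT replicates 1 and 4 lay above all KO libraries and KO replicate 1 below all WT libraries, while the rest interleaved. The coefficient of variation was 19.1% among KO libraries and 32.7% among WT libraries. The log2 difference was -0.28 (interval -0.67 to 0.11; limma adjusted p = 0.69), and leaving out WT replicate 1 changed it to -0.09. With all libraries the interval reaches down to a fold of 0.63, so a decrease of that size is not shown to be absent.

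Abcg1, on chromosome 17 from 31057675 to 31117988, encodes the transporter that passes cholesterol to mature HDL particles. It had 43752, 44109, 47010, 44520 and 41209 normalized counts in KO replicates 1 to 5, against 47791, 41081, 49588 and 56314 in WT replicates 1 to 4. The KO libraries were tightly grouped, with a coefficient of variation of 4.69% against 12.9% in WT, and they lay inside the WT range. The difference was -0.13 (interval -0.31 to 0.04; adjusted p = 0.67), and it was 0.017 in the deeper libraries. The interval reaches down to a fold of 0.81, so a decrease of that size is not shown to be absent.

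In the fit to all 9 libraries, Apoe had the largest difference of the 10 genes and the smallest p. It had 165844, 172819, 180629, 215177 and 212599 normalized counts in KO replicates 1 to 5, against 274545, 252413, 195275 and 275187 in WT replicates 1 to 4. Of the WT libraries 3 were above all KO libraries, and WT replicate 3 lay below KO replicates 4 and 5, so the groups overlapped through that library. The means were 189414 ± 22964 in KO and 249355 ± 37576 in WT (SD over 5 KO and 4 WT libraries), and on the log2 scale they differed by -0.39 (SE 0.11, interval -0.62 to -0.17), a fold of 0.76. Its unadjusted p in limma was 0.0021, which ranked 183rd of 14905 genes, and after adjustment it did not pass (adjusted p = 0.17, between 0.095 and 0.54 over the alternatives). The order among the 10 genes depended on single libraries. The difference of Nr1h3 was the larger without KO replicate 2 (-0.37 for Nr1h3 and -0.36 for Apoe), without KO replicate 3 (-0.378 and -0.376) and without WT replicate 1 (-0.38 and -0.34). Without WT replicate 2, the limma adjusted p was 0.40 for Npc2 and 0.42 for Abcg1, below the 0.45 for Apoe. With all libraries, 1 of the 10 genes had an unadjusted p under 0.05, where 9.14% of all genes did. Among the deeper libraries the difference was -0.53 (4 KO and 2 WT libraries), and among the shallower ones it was -0.12 (1 KO and 2 WT). In bulk RNA, fewer cells of a type and less RNA per cell cannot be told apart. Apoe lies on chromosome 7 from 19696109 to 19699188, and Nr1h2 and Nucb2 (116504369 to 116540584) are on the same chromosome.

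Of the lists of cell type markers, only that of mast cells held genes that passed the test. Differences of the other markers did not pass, and the part of any marker in the Apoe difference was not tested. Of the 6 macrophage markers 2 lay above 0 and 4 below, with a median of -0.01. Fcgr1, an Fc receptor gene, had 8685 to 11268 normalized counts in KO and 11917 to 18179 in WT, so its groups did not overlap (difference -0.50, limma adjusted p = 0.12). Adgre1, which encodes the sorted F4/80 antigen, averaged 91199 ± 5643 in KO and 106114 ± 8809 in WT, with 4 of the 5 KO libraries below all WT libraries (difference -0.22, adjusted p = 0.28). Itgam, which encodes the sorted CD11b antigen, averaged 23739 ± 1945 in KO and 20943 ± 1097 in WT, with 4 of the 5 KO libraries above all WT libraries (difference 0.18, adjusted p = 0.52). All 7 mesothelial markers had a difference above 0, with a summed level of 5412 to 17763 normalized counts in KO and 1968 to 7242 in WT. All 6 endothelial markers were above 0 as well, with sums of 3237 to 6232 in KO and 1345 to 3016 in WT. Of 6 mast cell markers, 4 passed the test and all lay below 0, with sums of 1510 to 2727 in KO and 5156 to 9417 in WT. Fcer1a was at the floor of the table in all 5 KO libraries. Fibroblast sums, 277611 to 431536 in KO and 193638 to 323435 in WT, overlapped, with 5 of 6 markers above 0 and 2 at an unadjusted p under 0.05. The sums of adipocyte, T cell, B cell, neutrophil and dendritic cell markers overlapped as well. Of 5 adipocyte markers 2 lay above 0 and 3 below, and of 5 dendritic cell markers 3 lay above 0 and 2 below. Each of these lists held 1 gene whose groups did not overlap, and that gene was lower in KO. The adipocyte hormone gene Lep had 1.27 to 152 in KO and 154 to 568 in WT (limma adjusted p = 0.17). The dendritic cell gene Clec9a had up to 72.9 in KO and 145 to 803 in WT (limma adjusted p = 0.22).

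Mylip encodes IDOL, a ubiquitin ligase that LXRs induce and that lowers lipoprotein uptake. It had 1522, 1702, 1591, 2056 and 821 normalized counts in KO replicates 1 to 5, against 1554, 1738, 1819 and 1634 in WT replicates 1 to 4. KO libraries held both the highest and the lowest value, and the WT libraries were close together between them. The difference was -0.19 (interval -0.68 to 0.30; limma adjusted p = 0.84), and without KO replicate 5 it was 0.019.

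Npc2 and Npc1 pass cholesterol out of the lysosome, and their differences had opposite signs, neither past the test. Npc2, the soluble carrier, had 71463, 73065, 72297, 67239 and 62693 normalized counts in KO replicates 1 to 5, against 76077, 66167, 83609 and 81203 in WT replicates 1 to 4. Of the WT libraries 3 lay above the KO range and WT replicate 2 inside it, and the difference was -0.14 (interval -0.31 to 0.02; limma adjusted p = 0.61). In the deeper libraries it was 0.00062. Npc1, the membrane exporter, had 6325, 5539, 5417, 5670 and 5089 normalized counts in KO, against 4541, 5372, 5062 and 5612 in WT. KO replicates 1 and 4 were above all WT libraries, WT replicates 1 and 3 were below all KO libraries, and the rest intermixed (difference 0.12, interval -0.10 to 0.35, adjusted p = 0.77). Exons of the opposite-strand gene Rmc1 cover 511 bases, 4.52%, of Npc1 exons; whether the counting used strand is not given in the sources used here. Per kb, Npc2 stood at 25.8 ± 1.81 times Npc1 in KO and 31.2 ± 4.31 times in WT, and the groups overlapped.

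The cycle of esterification and hydrolysis showed the smallest differences. Soat1, whose product stores cholesterol as ester, had 24766, 19313, 20119, 19492 and 18979 normalized counts in KO replicates 1 to 5, against 19572, 20471, 21347 and 23534 in WT replicates 1 to 4. KO replicate 1 was the highest library, 3 of the other KO libraries lay just below the WT range, and 1 inside it (difference -0.05, interval -0.25 to 0.14; limma adjusted p = 0.89). Nceh1, whose product hydrolyses those esters, had 17207, 19488, 18904, 15656 and 15055 normalized counts in KO, against 19808, 16815, 16096 and 20229 in WT. The groups intermixed (difference -0.08, interval -0.29 to 0.13, adjusted p = 0.84). As folds, the interval was 0.84 to 1.10 for Soat1 and 0.82 to 1.10 for Nceh1. The ratio of Soat1 to Nceh1 per kb was 0.644 ± 0.095 in KO and 0.630 ± 0.076 in WT.

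**Figure D3:**
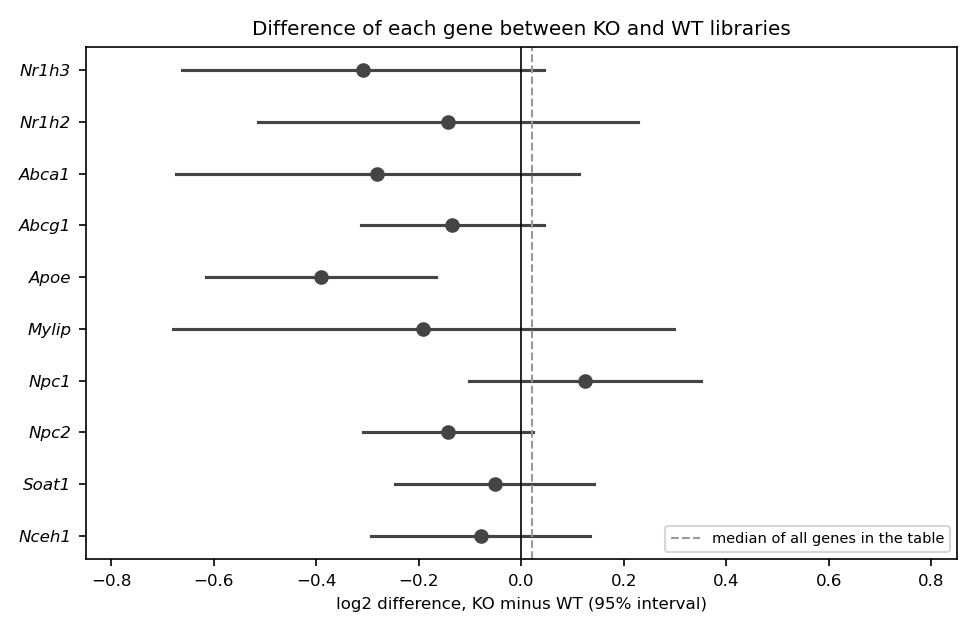
Log2 difference, KO minus WT, for the 10 genes with its 95% interval from limma on 5 KO and 4 WT libraries; the dashed line is the median of all genes, 0.02. Only the unadjusted interval of Apoe, -0.62 to -0.17, lies off 0, and Npc1 is the only gene with a point above it.

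The leaning towards lower values was uneven over libraries. KO replicate 5 was the lowest of the 9 libraries in 5 of the 10 genes (Nr1h3, Mylip, Npc2, Soat1 and Nceh1), where over genes above the floor in each library it was the lowest in 12.6%. It was one of the shallower libraries. WT replicates 3 and 4, also shallower, were each the highest in 3 of the 10 genes, where over all genes they were the highest in 10.9% and 10.8%. KO replicate 5 was the highest in 0 of the 10 genes and in 13.6% of all genes. Depth and genotype could be separated only in part, since 4 of 5 KO libraries but 2 of 4 WT libraries were deeper.

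The library profiles closest to Abca1, Abcg1 and Apoe were sought among 7280 genes with a mean at or above the median, leaving out predicted gene symbols. The measure was the root mean square difference, over the 9 libraries, between log2 values centred on each gene's mean. For Abca1 the closest genes were Pank3 (0.15), Agfg1 (0.16) and Myo7a (0.16), where the median over genes was 0.44. For Abcg1 they were Psap (0.053), Atp5a1 (0.057) and Acp1 (0.060), with a median of 0.28 over genes. For Apoe they were Ube2h (0.11), C1qc (0.13) and Snhg3 (0.14), with a median of 0.36. Psap encodes the precursor of the saposins of the lysosome, and C1qc a chain of complement C1q. These distances share the same 9 libraries and their scaling.

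The wider pathway was followed in 7 lists holding 91 genes, of which 86 were in the table; 0 of the 86 passed the test, 44 lay above 0 and 42 below. By an unadjusted p under 0.05, 4 of the 86 passed (Elovl5, Lipa, Abca9 and Msr1), against 9.14% of the table.

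Other LXR target genes showed no common direction, with 10 of 18 above 0 and a median difference of 0.02. Elovl5, a fatty acid elongase, had 14203, 12430, 10791, 11817 and 13611 normalized counts in KO replicates 1 to 5, against 10708, 9048, 10956 and 9593 in WT replicates 1 to 4. KO replicates 1, 2, 4 and 5 stood above all WT libraries, and KO replicate 3 was below WT replicate 3 (difference 0.32, limma adjusted p = 0.26). Scd1, the fatty acid desaturase, averaged 1743 ± 349 in KO and 1342 ± 79.6 in WT, and lipoprotein lipase, Lpl, averaged 297374 ± 41039 in KO and 340959 ± 39615 in WT (adjusted p = 0.57 and 0.58). Srebf1, the lipogenic transcription factor gene whose promoter also held the LXR core, averaged 870 ± 207 in KO and 753 ± 201 in WT (adjusted p = 0.84).

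Of 16 partners and coregulators of LXR, 7 lay above 0 and 9 below, with a median of -0.04 and a smallest adjusted p of 0.61. Ep300, a histone acetyltransferase gene, averaged 1083 ± 282 normalized counts in KO libraries and 1447 ± 294 in WT libraries, and the deacetylase gene Sirt1 averaged 1120 ± 343 in KO and 786 ± 123 in WT. Rxrb, one of the retinoid X receptors, averaged 264 ± 72.3 in KO and 413 ± 94.0 in WT. Among 9 genes of oxysterol synthesis and breakdown, 3 were above 0 and the median was -0.21. Ch25h, which makes the LXR ligand 25-hydroxycholesterol, ranged from 119 to 424 in KO libraries and from 206 to 975 in WT libraries (adjusted p = 0.69). Cyp39a1, an oxysterol hydroxylase, averaged 328 ± 89.2 in KO and 189 ± 113 in WT (adjusted p = 0.60). Cyp46a1 was at the floor in 4 of 5 KO libraries and in WT replicate 4, and the other WT libraries had at most 57.6.

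Of 17 genes of lysosomal and intracellular sterol transport, 8 lay above 0 and 9 below, with a median of -0.02. Lipa encodes the lysosomal acid lipase that frees cholesterol from lipoprotein esters, the step before NPC2 and NPC1. It had 119326, 110558, 117532, 116715 and 94212 normalized counts in KO replicates 1 to 5, against 135944, 130076, 122147 and 141773 in WT replicates 1 to 4. Lipa was the 1 gene of the 86 whose groups did not overlap, all KO libraries being lower, against 3.15% of the table. Its difference of -0.25 (interval -0.41 to -0.09) did not pass after adjustment (limma adjusted p = 0.25). Stard5 averaged 2308 ± 487 in KO and 2831 ± 214 in WT, and Stard3 4405 ± 386 in KO and 3747 ± 491 in WT; both encode sterol-binding proteins (adjusted p = 0.58 and 0.59).

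For storage of cholesteryl ester, 7 of 8 genes lay above 0, with a median of 0.12 and a smallest adjusted p of 0.74. The lipid droplet coat gene Plin2, the most abundant of those named, was the 1 below 0, with normalized counts of 189588 ± 19428 in KO libraries and 202371 ± 18534 in WT libraries. The carboxylesterase gene Ces1d averaged 656 ± 314 in KO and 425 ± 94.1 in WT, and the hormone-sensitive lipase gene Lipe 411 ± 160 in KO and 332 ± 114 in WT. Of 10 other efflux genes, 6 lay above 0, with a median of 0.29. Abca9 had between 8086 and 8704 in KO and between 5445 and 9040 in WT (adjusted p = 0.47), so the KO libraries lay within the WT range. Abca7 averaged 891 ± 221 in KO and 636 ± 233 in WT, and Abca5 259 ± 102 in KO and 134 ± 15.4 in WT (adjusted p = 0.62 and 0.63).

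Among 8 lipoprotein receptors and uptake genes, 3 lay above 0, and the median was -0.03. Msr1, the class A scavenger receptor for modified LDL, stood at 17866, 14471, 14210, 11829 and 13038 normalized counts in KO replicates 1 to 5, against 16059, 16845, 18856 and 18100 in WT replicates 1 to 4. KO replicates 2 to 5 were below all WT libraries and KO replicate 1 was within their range (difference -0.30, limma adjusted p = 0.34). Sorl1 averaged 1287 ± 362 in KO and 1004 ± 437 in WT. Lrp8 was at or near the floor in 4 of 5 KO libraries and in WT replicate 3. Cd36, a scavenger receptor that takes up fatty acids, had a difference of -0.0049.

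**Figure D4:**
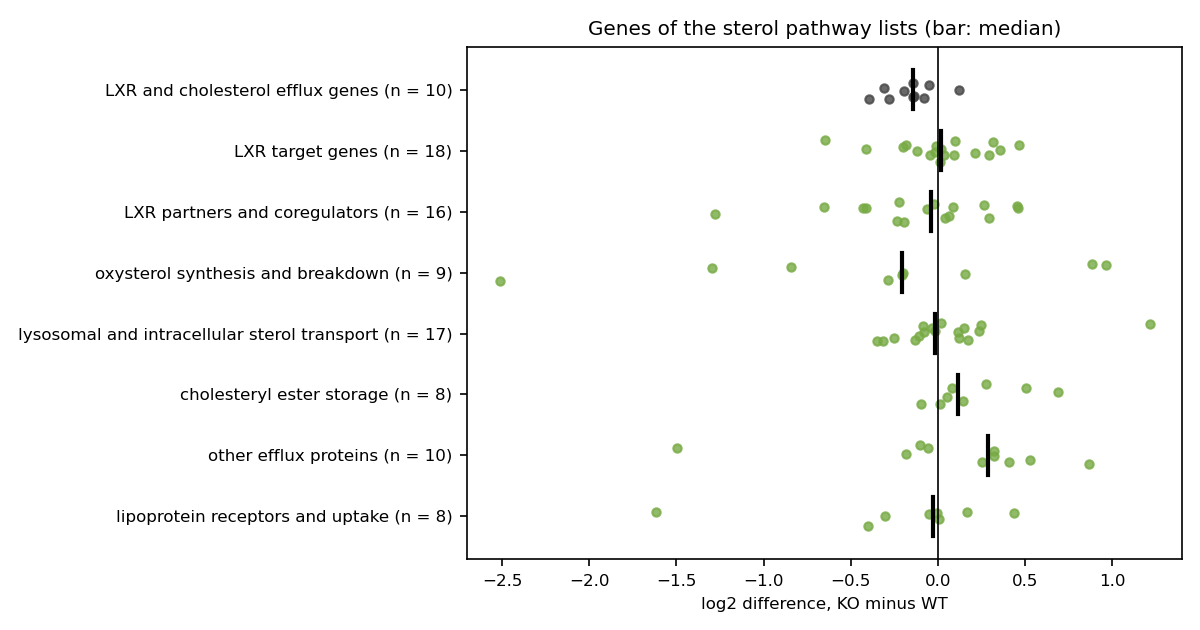
Log2 difference, KO minus WT, of each measured gene in the 10-gene set (top row) and 7 lists of the wider sterol pathway; points are genes, jittered vertically, and bars are medians. The medians run from -0.21 for oxysterol synthesis and breakdown to 0.29 for other efflux proteins, and no gene shown passed the test.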

How the data were processed

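RNA was sequenced from sorted adipose macrophages in 5 KO and 4 WT libraries. Per the labels' protocols, oligo-dT-selected RNA was made into strand-specific libraries; among tools, DESeq2, Partek, HISAT and CASAVA 1.8.2 appear in the submitters' processing notes, with the mm10 build but no roles. The authors deposited a normalized signal for each gene: judging from the values, reads divided by 1 factor per library, with values under 1 set to 1. Within 0.1 of a step, 99.4% to 99.7% of a library's values above that floor were whole multiples of 1 step, which gave the reads. For the annotation, the strand setting and shared reads, the method is not given in the sources used here.

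From the deposited signal, limma 3.58.1 (R 4.3.3) was fitted to log2(value + 1) with a mean-variance trend and genotype as the only term; the filter, at least 1 in at least 4 libraries, kept all 14905 genes, over which p-values were adjusted at 0.05. This scale understates changes of low genes. Intervals are 95% and unadjusted. No count-model test was run on the reads, since the floor hides 0 and 1 read in 6 libraries. Exon lengths and positions are from GENCODE M21 by symbol (14369 genes matched). A length joins the exons of all annotated transcripts of a gene, so levels and ratios per kb depend on it. In data drawn with known changes, 42%, 88%, 100% and 100% of genes changed 1.5, 2, 4 and 8 fold were recovered (50 each, none of low mean), and 2 of 167 calls were unchanged genes. Genes of 1 mean level were drawn with the same dispersion, and more genes were called than the 46 of the real table. Recovery in the real libraries may therefore be lower, and no change under 1.5 fold was drawn.

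The genes and lists were chosen with earlier results of these data known. Named beyond the 10 genes were Nucb2, the 3 genes of smallest p in each pathway list, and the 3 closest profiles of Abca1, Abcg1 and Apoe; Srebf1, Cd36 and the genes of overlapping exons were named after their values were seen, as were Fasn and the markers Fcer1a, Lep and Clec9a, while the macrophage markers are the whole list fixed for them; 1 gene of the lists is not reported here. Alternatives were pseudocounts of 0.1 and 10, other filters, quantile or median-ratio scaling, robust moderation, array weights, depth class, the replicate block, deeper libraries alone, limma-voom on the reads and each library left out. Figures used matplotlib 3.10.9 under Python 3.11.15.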

Additional observations from a re-analysis of the deposited data

Results flagged for a closer look

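Soat1 in KO replicate 1, at 24766 normalized counts, stood apart from the other 4 KO libraries, which lay between 18979 and 20119; its gap to the nearest of them was 0.803 of the group's range. It was the 1 flag among 20 groups examined (10 genes in KO and in WT), and chance flags about 1 group in 20.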

How the results depend on the processing

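Over 22 alternatives, 0 of the 10 genes and 0 genes of each of the 7 lists passed. The alternative without a filter repeated the main fit, since the main filter had removed no gene. The smallest adjusted p for Apoe was 0.095, without WT replicate 3, and its difference lay between -0.53 and -0.32. In limma the count of genes passing over the whole table was 46; leaving out KO replicates 1 to 5 in turn gave 8, 14, 5, 8 and 9, and leaving out WT replicates 1 to 4 gave 38, 10, 18 and 19. It was 0 with the replicate block, which drops KO replicate 5 (1104 at an unadjusted p under 0.05), and 0 in the deeper libraries alone (1039). With limma-voom it was 32, of which 12 were higher in KO, against 27 of 46 in the main test. Same-numbered libraries deviated together little (correlations across genes of -0.053 to 0.090), and not every library was closest to its own number, so the numbers were not taken as pairs. The count of the 10 genes below 0, an outcome added after seeing the data, was 5 in the deeper libraries. There Abcg1, Mylip, Npc2 and Soat1 turned to 0.017, 0.054, 0.00062 and 0.056. Mylip was 0.019 with the replicate block and, over the fits that left out 1 library, between -0.31 and 0.019, the higher value without KO replicate 5; Soat1 was 0.016 under quantile normalization. The cause was not tested. The edgeR alternative was not run because of the floor.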
